A study of Rattus norvegicus with 15 samples.

Results

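The first 2 h after glial cell line-derived neurotrophic factor (GDNF) was given back to starved rat spermatogonial stem cells are described here, from 6 of the 15 arrays of the series. The 3 arrays labelled GDNF 2hr Replacement were compared with the 3 labelled GDNF Withdrawal, and the labels decide which array is in which group. Spermatogonial stem cells are the germline stem cells of the testis. All groups share a history of 1 month in culture, without serum and with GDNF. The withdrawal cultures then went 18 h without GDNF, and the 2 h cultures went 18 h without it and 2 h with it again. Each group came from 3 independent cultures. For levels, the control cultures, which kept GDNF throughout, and the cultures given GDNF back for 4 h or 8 h are set beside these groups. The labels used here give no strain, age or sort, and no culture kept without GDNF for the further 2 h is analysed here, so the return of GDNF cannot be told apart from the added time and the handling of the medium.

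GDNF is known as the main self-renewal signal of these cells in rodents. It binds the co-receptor GFRA1, which brings it to the receptor tyrosine kinase RET, and RET passes the signal on through the ERK, AKT and SRC family kinases. Kinase signals of this kind act first on transcription factors already present in the cell, among them SRF with its ETS partners, CREB and the FOXO factors. The genes switched on directly are called immediate early genes, and many of them encode short-lived transcription factors or inhibitors that turn the signal down again.

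The cells carried transcripts of spermatogonia in both groups. Mean intensity was 7587 after withdrawal and 7918 at 2 h for the adhesion molecule gene Epcam, 5409 and 5539 for Uchl1, 644 and 675 for Sall4 and 1423 and 1509 for Sohlh1, and none of these 4 differed past the threshold. The co-receptor gene Gfra1 was under an intensity of 16 on all 15 arrays. A further 6 of the 22 markers with a probe set, Nanos3, Lin28a, Neurog3, Thy1, Tspan8 and Eomes, lay under 16 on all 6 arrays. Of the 15 tested spermatogonial markers 3 were higher and 3 lower at 2 h, 20% each, against 10.9% and 17.2% of all genes. Markers of differentiating and meiotic germ cells were present too. Means after withdrawal and at 2 h were 12607 and 13892 for Sycp3, 2727 and 2652 for Stag3 and 165 and 150 for Kit. Of 10 such markers 2, Spo11 and Msh5, were under 16 on all 6 arrays. Of 10 Sertoli cell markers 5 were under 16 on all 6 arrays, Gata4, Amh, Inha, Nr5a1 and Dhh, as were 10 of 11 Leydig and peritubular and 9 of 11 immune, blood and endothelial markers. The other Sertoli cell markers were present. Means after withdrawal and at 2 h were 3470 and 3326 for Clu, 307 and 301 for Cldn11 and 93.3 and 89.7 for Rhox5. Gata1 averaged 40.8 and 48.8 and Wt1 16.4 and 19.2. The remaining markers of the other lists were Acta2 (89.1 and 95.4), Cd3e (285 and 314) and Pecam1 (48.3 and 51.9). Markers of mesenchymal cells, which fibroblasts or feeder cells would bring, were present, and 13 of 22 were above 16 on an array. The summed level of the 22 ran from 4988 to 10188 after withdrawal and from 4788 to 5614 at 2 h. Withdrawal replicate 1 had the low sum and lay among the 2 h arrays. For 2 h against withdrawal, results that move with these markers are therefore given below with their mean as a covariate as well. As a sign of RNA quality, the 3′ minus 5′ log2 difference of control probe sets was lower on every 2 h array than on every withdrawal array for GAPDH, from -0.27 to -0.25 against -0.15 to -0.10, and for beta-actin, from 1.97 to 2.12 against 2.17 to 2.24. Its part in the results was not tested.

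Values are the deposited probe set intensities, and changes are log2 differences between the means of 3 arrays with the SE of limma, the linear model fitted to all probe sets. At an adjusted p under 0.05, 4137 of 15856 probe sets tested (26.1%) differed, 1888 higher (11.9%) and 2249 lower (14.2%) at 2 h. Taken by gene, 2525 of 9002 (28%) differed, 980 (10.9%) higher and 1545 (17.2%) lower, and the median change over all genes was -0.05 on the log2 scale. Lower calls outnumbered higher ones as deposited, but with each array centred on its median the probe sets split into 2185 higher and 1950 lower. Large changes ran the other way: 52 genes (0.578%) rose and 30 (0.333%) fell by 2-fold or more. Arrays of a group were close, with a median residual SD of 0.102 on the log2 scale, so that small changes passed the test. In 4043 genes (44.9%) the values of the groups did not overlap, which makes a lack of overlap a common property here.

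**Figure D1:**
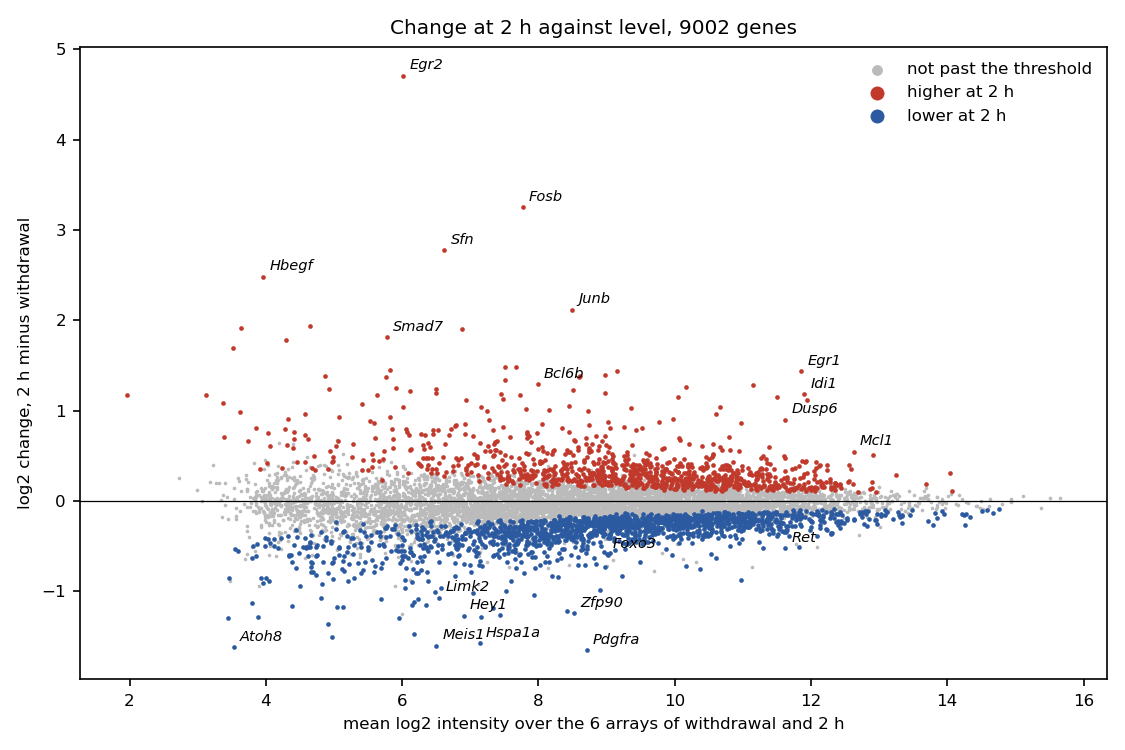
Log2 change at 2 h against withdrawal (vertical axis) against the mean log2 intensity (horizontal axis) for the 9002 genes tested, 1 point a gene, with the genes past the threshold coloured by direction. The rises reach further from 0 than the falls, with Egr2 at 4.71 and Pdgfra at -1.65.

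Immediate early transcription factors made up 8 of the 20 largest rises. Of 23 tested members of this list 17 rose (73.9%) and 2 fell, with a median log2 change of 0.81, against 10.9% and 17.2% of all genes and a median of -0.05. The zinc-finger factor gene Egr2 read 8.3, 14.1 and 17.1 on the withdrawal arrays and 358, 320.3 and 313 at 2 h. It was close to the detection level of 16 before and far above it on every array after. Its log2 change was 4.71 ± 0.23 (SE, n = 3 in each group, limma adjusted p = 4.08e-09), a 26.1-fold rise, or 20.1-fold with values under 16 set to 16. The related gene Egr1 was already high, at 2279, 2333 and 2160 after withdrawal, and stood at 5982, 6009 and 6363 at 2 h. The groups were far apart and tight, and Egr1 rose 2.71-fold (adjusted p = 2.37e-10). Egr4 changed little, from 1791, 1701 and 1536 to 1909, 1940 and 2023, a 1.17-fold rise (adjusted p = 0.0114). It was no longer past the threshold without withdrawal replicate 3 (0.0541) or with the mesenchymal marker mean as a covariate (0.115).

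The AP-1 factor genes, whose products pair as FOS and JUN proteins, did not move as a block. Fosb lay at 133, 75.2 and 35.4 after withdrawal and at 782, 632 and 624 at 2 h. The withdrawal arrays spread widely, yet the highest of them was far below the lowest 2 h array, and Fosb rose 9.55-fold (adjusted p = 0.000368). With the mesenchymal marker mean as a covariate the rise was 4.84-fold (adjusted p = 0.00164). Fos itself went from 2209, 1533 and 904 to 4194, 3394 and 3117, 2.44-fold higher (adjusted p = 0.011), and was not past the threshold with that covariate (0.101) or without withdrawal replicate 3 (0.0546). Fosl1 was 1.74-fold higher, at 695, 693 and 712 against 421, 436 and 353. Among the JUN genes, Junb stood at 151, 179 and 188 and then at 628, 812 and 819, a 4.34-fold rise (adjusted p = 8.81e-09) with all 2 h arrays above all withdrawal arrays. Jund rose 1.16-fold, a call lost without withdrawal replicate 3 (adjusted p = 0.074), without 2 h replicate 1 (0.0849) and with the covariate (0.0926), and its other probe set was at 0.05. Jun was at 899.5, 923 and 950.2 after withdrawal and 817, 846 and 828 at 2 h, a log2 change of -0.15 (adjusted p = 0.437). Its other probe sets gave 0.14 and -0.43, the last of them past the threshold (0.0445), so none of the 3 rose past the threshold.

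The small MAF factors pair with other leucine-zipper proteins at antioxidant and stress response sites. Maff had intensities of 114, 105 and 108, then 278, 302 and 335, and rose 2.8-fold (adjusted p = 2.59e-07). Mafk rose 1.75-fold, from 243, 258 and 237 to 426, 423 and 442. Both sets of 3 arrays were tight and apart. Srf, which encodes the factor at the head of many immediate early promoters, was itself 1.75-fold higher, at 934, 973 and 1012 against 600, 540.3 and 528 (adjusted p = 1.9e-06). The helix-loop-helix repressor gene Bhlhe40, also part of the circadian clock, rose 2.74-fold, from 28.1, 31 and 46.1 to 86.6, 97 and 98.1. Ier2 rose 2.72-fold, from 399, 301 and 347 to 953, 924 and 946, Ier3 1.77-fold and Ier5 1.23-fold. Ier5 lost its call when withdrawal replicate 1 (adjusted p = 0.0865), withdrawal replicate 2 (0.0532) or 2 h replicate 1 (0.0989) was left out, and with no filter on low values (0.054).

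The Krüppel-like factor genes differed among themselves. Klf10, known as a TGF-beta early gene, rose 2.22-fold, from 2073, 1893 and 1906 to 4401, 4070 and 4562, and Klf4 rose 1.53-fold. Klf6 was at a log2 change of 0.38 (adjusted p = 0.117), while 1 of its other probe sets, at 0.41, was past the threshold (0.0433). Klf2 fell 1.36-fold, from 1015, 999 and 857 to 738, 719 and 657, with no overlap (adjusted p = 0.00175), and its other probe sets, at 0.04 and -0.45, were not called. Crem, a repressor and activator of cAMP response genes, was 1.18-fold lower with overlapping groups (adjusted p = 0.0466), a call that did not hold when withdrawal replicate 2 (0.218) or 2 h replicate 2 (0.165) or 3 (0.143) was dropped. Mycn (-0.05) and the neuronal immediate early gene Arc (-0.14) were not past the threshold, and both had overlapping groups. With the mesenchymal covariate 14 members were higher.

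**Figure D2:**
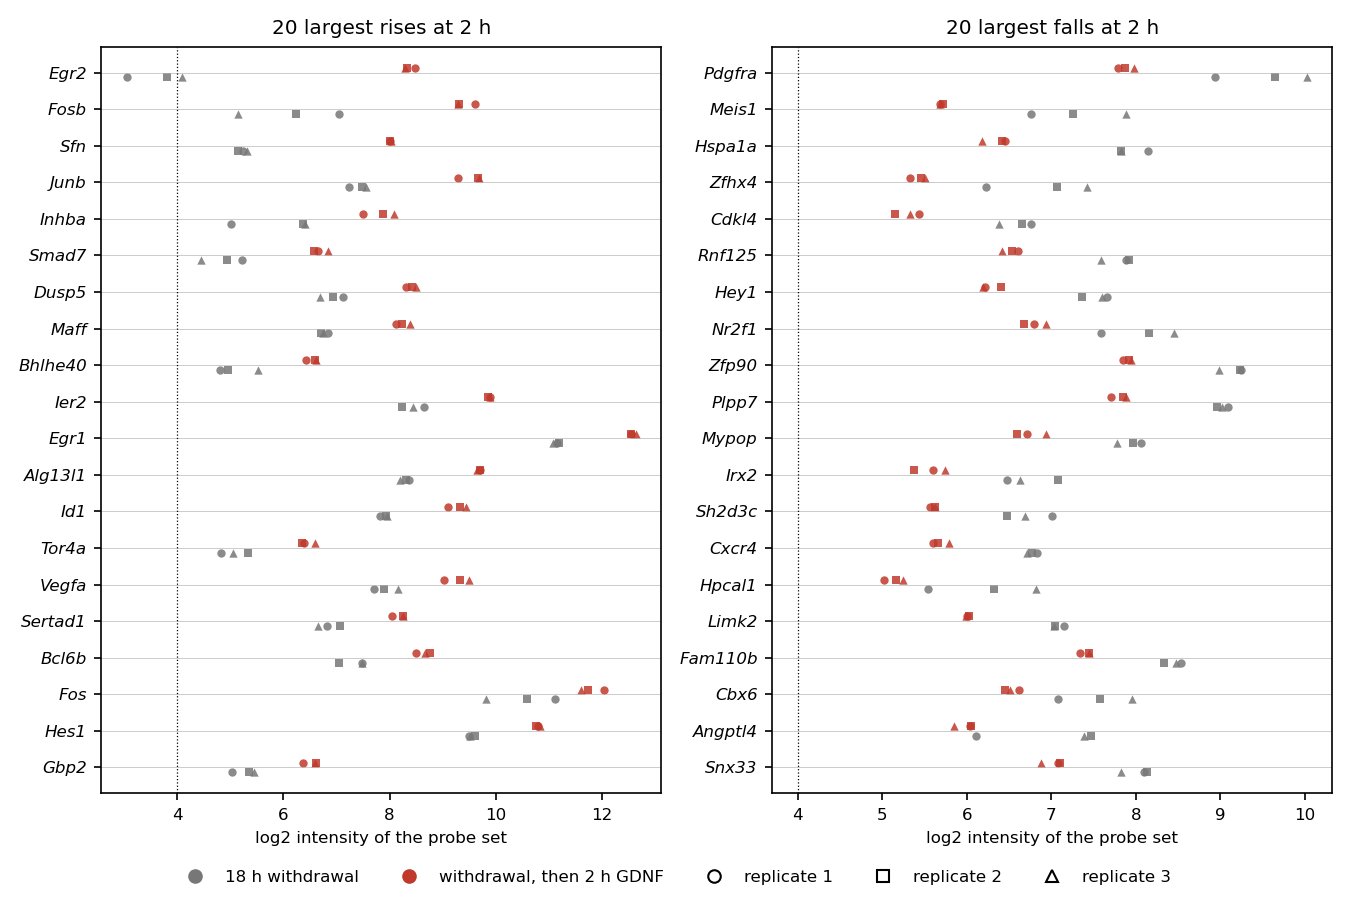
Intensity on a log2 axis of the 20 genes with the largest rises and the 20 with the largest falls, 1 point for each of the 3 withdrawal and 3 arrays at 2 h, with a dotted line at log2 4. Egr2 starts near the line and ends between 313 and 358, while the withdrawal arrays of Fosb, Fos, Pdgfra and Meis1 spread more widely than those of Egr1 or Limk2.

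The promoters of these genes are shown because several of the strongest rises carry, in the 250 bases before the start, the letters that SRF or CREB is known to bind. The sequences are from RefSeq, rat assembly GRCr8, read 5′ to 3′ on the strand of the gene, and capitals mark matches to a CArG box (the SRF element), to the cAMP response element (CRE) TGACGTCA and to the EGR motif GCGNGGGCG. Egr2 (chr20:21054442-21054691, minus strand) has a CArG box at -83 to -74 from its start. Dusp5 (chr1:262543524-262543773, plus strand) has CArG boxes at -82 to -73 and -72 to -63, directly side by side, and an EGR match at -172 to -164. Srf (chr9:21923826-21924075, plus strand) has CArG boxes at -81 to -72 and -61 to -52 and an EGR match at -100 to -92. Maff (chr7:112792537-112792786, plus strand) and Ier2 (chr19:40399123-40399372, plus strand) have a CRE at -51 to -44 and at -66 to -59, and Maff an EGR match at -110 to -102.
Egr2: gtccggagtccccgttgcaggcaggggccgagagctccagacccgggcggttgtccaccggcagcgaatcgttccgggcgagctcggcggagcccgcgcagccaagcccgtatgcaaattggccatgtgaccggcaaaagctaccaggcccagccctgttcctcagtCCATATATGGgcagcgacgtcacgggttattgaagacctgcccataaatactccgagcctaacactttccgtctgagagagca
Dusp5: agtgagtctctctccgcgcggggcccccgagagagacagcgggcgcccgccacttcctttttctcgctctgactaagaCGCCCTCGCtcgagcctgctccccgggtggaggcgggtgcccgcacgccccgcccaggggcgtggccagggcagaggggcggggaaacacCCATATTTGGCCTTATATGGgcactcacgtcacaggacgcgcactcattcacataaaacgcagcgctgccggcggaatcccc
Srf: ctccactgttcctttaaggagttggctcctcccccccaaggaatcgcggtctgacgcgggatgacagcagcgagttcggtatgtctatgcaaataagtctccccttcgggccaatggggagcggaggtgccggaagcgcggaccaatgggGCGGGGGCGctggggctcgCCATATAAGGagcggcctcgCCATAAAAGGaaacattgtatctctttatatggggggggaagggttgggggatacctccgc
Maff: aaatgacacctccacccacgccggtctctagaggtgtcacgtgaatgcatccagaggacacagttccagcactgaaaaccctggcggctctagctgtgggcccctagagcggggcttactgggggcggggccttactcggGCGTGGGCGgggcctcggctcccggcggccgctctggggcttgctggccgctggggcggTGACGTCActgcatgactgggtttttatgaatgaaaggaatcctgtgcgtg
Ier2: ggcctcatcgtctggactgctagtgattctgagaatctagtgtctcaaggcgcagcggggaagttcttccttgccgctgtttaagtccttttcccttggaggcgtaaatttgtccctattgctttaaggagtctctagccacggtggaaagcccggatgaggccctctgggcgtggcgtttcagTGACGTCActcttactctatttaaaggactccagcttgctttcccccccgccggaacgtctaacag

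Over the whole response these matches were uncommon. A promoter was listed for 831 of the 980 genes that were higher, 1328 of the 1545 that were lower and 7669 of the 9002 tested, and both strands were searched. The CRE was in 57 promoters of the higher genes (6.86%), 23 of the lower genes (1.73%), 3.39% of the tested genes and 1.7% of all 27457 promoters in the table. The CArG box was in 2.05% of higher, 1.36% of lower and 1.25% of tested genes. An ETS motif, CCGGAAGT, was in 10.7%, 6.4% and 8.23%. The EGR motif was in 10.1%, 10.3% and 9.35%, the AP-1 motif TGANTCA in 5.05%, 3.69% and 4.02%, and the FOXO motif GTAAACA in 1.93%, 2.26% and 1.98%. The shares for the EGR and FOXO motifs were thus close in both directions. Within the immediate early list, 16 of 23 genes had a promoter in the table, and 4 of the 16 held a CArG box (25%), 3 a CRE (18.8%) and 4 an EGR match (25%). Of the 18 promoters found for the 20 largest rises, 3 held a CArG box (16.7%), 2 a CRE (11.1%) and 3 the AP-1 motif (16.7%). Of the 16 promoters found for the 20 largest falls, 0 held a CArG box and 0 a CRE, and 3 held the AP-1 motif (18.8%). At shares of 1.25% and 3.39% in tested genes, 16 promoters are too few to show a lack of the CArG box or the CRE. Among the other genes named here, a CArG box was found for the rises Egr1, at -105 to -96 and -83 to -74, Zfp36, at -32 to -23, and Fhl2, at -95 to -86, for the fall Mcm6, at -48 to -39, and for Klf6, at -201 to -192. Others with a CRE were Ppp1r15a at -66 to -59, Jund at -221 to -214 and Cdc42 at -59 to -52. The probe set that stands for Cdc42 was not past the threshold. Of its other probe sets, 1 was at a log2 change of 0.10 and not called, and 1 rose by 0.87 (limma adjusted p = 2.26e-05). A match is a run of letters and no evidence of binding.

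Several inhibitors of the ERK pathway rose. Of 16 tested feedback inhibitors of ERK and receptor kinases 6 rose (37.5%, against 10.9% of all genes) and 1 fell (6.2%, against 17.2%), with a median log2 change of 0.05. The dual-specificity phosphatase gene Dusp5, whose product acts on nuclear ERK, rose 2.8-fold, from 140.1, 123 and 103 to 316, 342 and 362 (adjusted p = 4.06e-06). Dusp2 rose 2.26-fold, from 116, 117 and 117 to 269.7, 266 and 256. Dusp6, the cytoplasmic ERK phosphatase, was at 2325, 2291 and 2299 and then at 4273, 4224 and 4402, 1.87-fold higher (adjusted p = 1.04e-09). In each of these 3 genes the groups were apart by much more than the spread within them, and the other probe sets of Dusp6 rose as well. Dusp1, by contrast, was at a log2 change of -0.43 (adjusted p = 0.158). Among the Sprouty genes, inhibitors of receptor kinase signalling, Spry4 rose by 0.71 and Spry2 by 0.38 on the log2 scale, while Spry1 was at 0.03 and not past the threshold. Trib1, a pseudokinase gene, had intensities of 19.2, 12.9 and 8.54 and then of 50.9, 53.2 and 44.1. It lay at the detection level before GDNF came back, and rose 3.83-fold, or 2.9-fold with values under 16 set to 16. The 1 fall, Cblb, by 0.26 (adjusted p = 0.0455), was lost without withdrawal replicate 1 (0.194) or 3 (0.0501) and without any 1 of the 2 h arrays (0.0742, 0.0509 and 0.175).

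In the list of genes that shorten mRNA life or damp NF-kB, 11 of 23 tested members were higher (47.8%, against 10.9% of all genes), 1 was lower and 11 were not called, with a median log2 change of 0.27. Zfp36, whose product binds AU-rich elements and speeds the decay of early mRNAs, was at 739.7, 728 and 667 after withdrawal and at 1541, 1598 and 1615 at 2 h, 2.23-fold higher (adjusted p = 9.62e-09). Its relatives Zfp36l1 and Zfp36l2, had log2 changes of -0.04 and 0.11 with overlapping groups and did not pass the test. The survival kinase gene Pim3 rose 1.62-fold, from 187, 172 and 176 to 288, 285 and 294, and the stress genes Gadd45g and Plk3 1.66- and 1.65-fold, Plk3 at levels of 16 to 34.9. Tob1 and Btg3, of an anti-proliferative family that recruits deadenylases, rose by 0.67 and 0.43, the RNase gene Zc3h12a by 0.63 and Sgk1, an AKT-related kinase gene, by 0.59. The 1 fall was Bcl3, a nuclear partner of NF-kB, by 0.56 (adjusted p = 0.0141), lost without withdrawal replicate 2 (0.0763), without 2 h replicate 1 (0.0715) and with the covariate (0.0506). Among regulators of NF-kB in the list, Nfkbia was at 0.20 (adjusted p = 0.0577), Nfkbib at -0.01 (0.915) and Tnfaip3 at -0.02 (0.906), none of them past the threshold. Nfkbiz, however, rose by 0.35 (limma adjusted p = 0.00272).

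Several secreted or surface ligands rose. Of 19 tested members of the secreted list 7 were higher (36.8%, against 10.9% of all genes) and 0 lower (against 17.2%) by limma. The median log2 change was 0.38, and 1 member was lower at an unadjusted p under 0.05. The count was 12 with the mesenchymal covariate and 4 with the stricter filter on low values. Vegfa, the endothelial growth factor gene, read 208, 237 and 285 after withdrawal and 522, 645 and 719 at 2 h. All 2 h arrays were above all withdrawal arrays, and Vegfa rose 2.58-fold (adjusted p = 3.09e-06), as did its other probe set by 1.40 on the log2 scale. Inhba, the activin subunit gene, was lowest on withdrawal replicate 1 (32.4, 82.4 and 84.5) and at 182, 236 and 273 at 2 h. It rose 3.73-fold (adjusted p = 0.0031), or 7.07-fold with the mesenchymal covariate. Hbegf, an EGF-family ligand gene, went from 4.35, 7.87 and 8.39 to 32.4, 38.5 and 40.1. All withdrawal values lay under 16, and the 5.59-fold rise became 2.3-fold with values under 16 set to 16. The urokinase receptor gene Plaur, at 23.5, 67.5 and 58.4 and then 91.9, 108 and 118, rose 2.33-fold (adjusted p = 0.00549), 1.68-fold without withdrawal replicate 1 and 3.62-fold with the covariate. Tgfb1 rose by 0.55 on the log2 scale. The remaining calls, Il6 and Nrg1, were lost on leaving out most single arrays, among them any 1 withdrawal array for Il6 (adjusted p = 0.0678, 0.08 and 0.0756) and any 1 array at 2 h for Nrg1 (0.0772, 0.075 and 0.147). Il6 averaged 7.08 after withdrawal and 16.9 at 2 h, at or under the detection level, so no fold is given. The RET ligand neurturin, Nrtn, was at -0.06 and not past the threshold.

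Sfn, which encodes the 14-3-3 protein sigma, had intensities of 37.9, 35.5 and 39.6 after withdrawal and 256, 257 and 259.5 at 2 h. The 3 arrays at 2 h were within 4 units of each other, and the 6.85-fold rise had the smallest adjusted p of the 20 largest rises, 2.9e-11. Tnfrsf12a, the TWEAK receptor gene, rose 2.29-fold, from 279.6, 396 and 333 to 699, 762 and 827. Sertad1, a cofactor of E2F and CDK4, rose 2.54-fold, from 113, 134 and 100.4 to 265, 306 and 305. Alg13l1, Tor4a and the interferon-inducible GTPase gene Gbp2 rose 2.63-, 2.59- and 2.37-fold. Gbp2 was the last of the 20 largest rises and Mllt11, at 2.34-fold, the next outside.

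The receptor itself moved down. Ret was at 3954, 3776 and 3609 after withdrawal and at 2686, 2559 and 2645 at 2 h, with no overlap. It fell 1.44-fold (log2 change -0.52 ± 0.04 SE, limma adjusted p = 1.09e-06), and both other probe sets fell by 0.46. Of 25 tested genes of the receptor and its proximal partners 2 were higher (8%) and 4 lower (16%), with a median of 0.03, shares near those of all genes. The adaptor gene Frs2 rose 1.2-fold, with its other probe set at 0.15 and not called (adjusted p = 0.496), while Gab1 fell by 0.22. Src was 1.27-fold lower, at 38.9, 35.4 and 41.6 against 49.8, 49.5 and 47 (adjusted p = 0.0398), a call lost without any 1 of the 3 withdrawal arrays (0.0902, 0.101 and 0.061) and without 2 h replicate 1 or 2 (0.0843 and 0.141). The count of 4 lower members was 2 without withdrawal replicate 1, without withdrawal replicate 2 and without 2 h replicate 2. Gfra2 was at -0.04 with overlapping groups. Gfra3 was called higher, but its values of 8.88, 7.02 and 8.77 and then of 13.6, 13.2 and 13.3 all lay under 16, so no fold is given, and without withdrawal replicate 2 it missed the threshold (adjusted p = 0.0626).

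Of 10 genes tied to GDNF in mouse, 6 rose (60%, against 10.9% of all genes) and 1 fell (10%, against 17.2%). The rises differed in degree, and Egr2 and Fos among them also belong to the immediate early list above. Bcl6b, a transcriptional repressor that supports self-renewal, was at 179, 133 and 179.6 and then at 361, 432 and 407. The groups were far apart, and the 2.46-fold rise (adjusted p = 1.37e-06) was shared by its 3 other probe sets, at log2 changes of 1.08, 1.22 and 1.25. Id4, an inhibitor of helix-loop-helix factors and a marker of the most primitive spermatogonia, rose 2-fold, from 133, 119 and 78.6 to 211, 209 and 226 (adjusted p = 0.000334). Its other probe sets were at 0.56 (called) and 0.29 (adjusted p = 0.0605). The POU factor gene Pou3f1 rose 1.42-fold, from 159.7, 139 and 115 to 197, 206 and 182, and was not past the threshold with the mesenchymal covariate (adjusted p = 0.0642). Etv4 rose 1.19-fold, which did not stay past the threshold when withdrawal replicate 2 (adjusted p = 0.126) or 3 (0.123) or any 2 h array (0.0838, 0.0745 and 0.0792) was dropped, or with the covariate (0.348). The ETS factor gene Etv5 and the cyclin gene Ccnd2 were not past the threshold at 2 h, at log2 changes of -0.12 and 0.26. The chemokine receptor gene Cxcr4 fell 2.12-fold, from 114, 109 and 105 to 48.7, 50.7 and 55.5, and its other probe sets fell by 1.41 and 1.54. With the covariate 4 members were higher.

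Genes of the BMP and TGF-beta response rose in 11 of 25 tested members (44%, against 10.9% of all genes) and fell in 3 (12.0%, against 17.2%). Their median log2 change was 0.26. Among the rises, Hes1, Klf10 and Id4 also belong to other lists given here. BMP signals reach the nucleus through SMAD proteins and switch on the ID genes, and SMAD7 shuts the receptors down. Id1 was at 227, 245 and 249 and then at 552, 644 and 699, 2.62-fold higher (adjusted p = 3.49e-08), and Id3 rose by 0.71. Smad7 rose 3.51-fold, from 37.5, 30.7 and 21.9 to 100.4, 95.3 and 114, with a wide gap between the groups. Skil, a repressor of SMAD-driven transcription, had means of 2667 and 5767, a log2 change of 1.11, and Pmepa1 rose by 0.78. The receptor genes Acvr2a and Tgfbr1 rose by 0.41 and 0.30. Not all went up: Smad9 and Smad3 fell by 0.68 and 0.52, and Atoh8, a helix-loop-helix gene, went from 21.5, 19.6 and 19.6 to 7.12, 6.5 and 6.15. All 2 h values of Atoh8 lay under 16, and its 3.08-fold fall became 1.26-fold with values under 16 set to 16.

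Of 14 tested Notch pathway genes 3 rose (21.4%) and 2 fell (14.3%), against 10.9% and 17.2% of all genes, with a median of 0.02. The target gene Hes1, a transcriptional repressor, rose 2.39-fold, from 725, 781 and 736 to 1786, 1743 and 1823 (adjusted p = 1.01e-08). Hes6, whose product antagonizes HES1, rose 2.19-fold, from 96.3, 126 and 146 to 248, 261 and 289.5. Hey1, also a Notch target, fell 2.41-fold, from 202, 164 and 194 to 74.2, 84.6 and 73 (adjusted p = 9.64e-06). The groups of all 3 genes were well apart. Rbpj, the DNA-binding partner of Notch, rose 1.24-fold, and Jag1 and Numb were not past the threshold. The ligand gene Jag2 fell by 0.26 (adjusted p = 0.0288), a call undone when withdrawal replicate 2 (0.116) or 2 h replicate 1 (0.0943) or 2 (0.0888) was dropped, and with the covariate 4 members were lower.

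Several enzymes of sterol synthesis rose. Of 27 tested members of both arms 11 rose (40.7%, against 10.9% of all genes) and 2 fell (7.4%, against 17.2%), with a median log2 change of 0.01. Idi1, the isopentenyl diphosphate isomerase gene, stood at 2660, 2448 and 2522 after withdrawal and 5818, 5841 and 5665 at 2 h. The groups were tight and far apart, and it rose 2.27-fold (adjusted p = 5.43e-10). Sc5d rose 2-fold, from 207, 186 and 209 to 406, 383 and 417, and Msmo1 rose 1.95-fold, from 1114, 1060 and 1182 to 2078, 2104 and 2350. Both encode enzymes that act on the sterol ring system. Sqle rose by 0.71, Cyp51 by 0.60, Stard4, a sterol carrier gene, by 0.54, Hsd17b7 by 0.47, Fdft1 by 0.38 and Fdps by 0.16. Insig1, which holds the sterol sensor in the endoplasmic reticulum and is itself a target of SREBP, rose 1.81-fold, from 1589, 1496 and 1408 to 2649, 2675 and 2816. The sensor gene Scap fell by 0.37 and Insig2 by 0.45, the latter not past the threshold when withdrawal replicate 3 was dropped (adjusted p = 0.065) or with the covariate (0.145). The genes for the SREBP factors themselves, Srebf1 and Srebf2, were at -0.02 and 0.01, and for fatty acids Fasn was at -0.01 and Acly at -0.13 (adjusted p = 0.0503). None of these 4 was past the threshold, but Acly was without 2 h replicate 1 (0.0424) and with the covariate (0.0427), and the list then held 4 falls with the covariate. Of 20 promoters found for the list, 0 held the sterol element TCACNCCAC, which was in 0.952% of the promoters of tested genes.

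Cytoskeletal targets of SRF and its actin-sensing partners rose in 10 of 26 tested members (38.5%, against 10.9% of all genes) and fell in 3 (11.5%, against 17.2%), with a median of 0.02. Vcl, which encodes the adhesion protein vinculin, was at 450.2, 494 and 439.8 and then at 809, 792 and 843, 1.77-fold higher (adjusted p = 8e-06). Zyx, for the focal adhesion protein zyxin, rose 1.8-fold, from 301, 323 and 341 to 528, 608 and 600.4. In both genes every 2 h array was above every withdrawal array. Cnn2 and Tpm4, for calponin and tropomyosin proteins that bind actin filaments, rose by 0.67 and 0.62, Wdr1 by 0.39 and the cytoplasmic actin gene Actg1 by 0.31. Epb41l5 and Fhl2 started under the detection level. Epb41l5 went from 13.3, 9.01 and 10 to 35.7, 34.1 and 39.8, 3.43-fold, or 2.28-fold with values under 16 set to 16. Fhl2, an SRF cofactor gene, went from 6.47, 6.4 and 6.4 to 16.2, 27.4 and 32.3, 3.78-fold, or 1.52-fold with that floor. Mrtfa, the actin-sensing partner itself, fell by 0.32, and the non-muscle myosin gene Myh9 by 0.36, a call lost without 2 h replicate 2 (adjusted p = 0.0642). Without withdrawal replicate 1 the count of lower members was 5. Among regulators of small GTPases 3 of 23 rose and 3 fell (13.0% each), shares near the 10.9% and 17.2% of all genes. Gem rose from 14.3, 14.2 and 15.5 to 25.9, 25.4 and 25, Rhob rose 1.27-fold and Rac2 fell 1.74-fold, from 46.3, 36.9 and 36.5 to 24.6, 22.8 and 21. Rem2, the third of the rises, lost its call without any 1 withdrawal array (adjusted p = 0.104, 0.0841 and 0.0799) and without 2 h replicate 1 or 2 (0.111 and 0.18).

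Forkhead factors and genes listed as their targets fell more often than they rose. AKT is known to send FOXO proteins out of the nucleus, where they otherwise switch on genes of arrest, stress defence and death. Of 29 tested members 14 fell (48.3%) and 2 rose (6.9%), with a median log2 change of -0.20, against 17.2% and 10.9% of all genes. Foxo3 was at 601, 665 and 623 and then at 417, 473 and 374, 1.5-fold lower (adjusted p = 0.000136), and Foxo1 fell by 0.47. Cdkn1b, for the cyclin-dependent kinase inhibitor p27, fell 1.52-fold, from 135, 144 and 142 to 98.7, 91.5 and 87.5 (adjusted p = 0.00122). Neither gene had overlapping groups. The sestrin gene Sesn1, which restrains mTORC1, fell 1.6-fold, and on the log2 scale Ccng2 fell by 0.39, Ddit4 by 0.27 and the receptor gene Igf1r by 0.20. Sesn3 was at -0.48, and at -0.20 with the mesenchymal covariate (adjusted p = 0.406). Its call was also lost without withdrawal replicate 2 or 3 and without any 1 array at 2 h (adjusted p from 0.0549 to 0.213). Bcl6 was 1.54-fold lower (adjusted p = 0.0242), a call lost with the mesenchymal covariate (0.254), and when withdrawal replicate 2 (0.0687) or 3 (0.106) or 2 h replicate 1 (0.0962) or 2 (0.0625) was left out. The autophagy gene Atg12 rose by 0.26. Sod2, a mitochondrial antioxidant enzyme gene, was at 4160, 4268 and 4512 and then at 4244, 4003 and 4713, and did not differ past the threshold (adjusted p = 0.998). With the covariate 10 members were lower, and under the other settings 11 to 15.

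Of 21 tested genes of survival and death 3 rose and 3 fell (14.3% each), shares near the 10.9% and 17.2% of all genes. Mcl1, a short-lived survival protein of the BCL2 family, was at 5434, 5247 and 5008 after withdrawal and 7556, 7313 and 8025 at 2 h, 1.46-fold higher (adjusted p = 1.76e-06). The killer gene Bik fell 1.55-fold, from 588, 536 and 558 to 399, 361 and 331, and Bcl2l11, known as Bim, fell 1.33-fold, from 165, 169 and 154 to 129, 120.2 and 117. These 3 genes had no overlap between groups. Bid, of the pro-death branch, rose by 0.25.

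In the cell cycle, several genes of arrest fell and the D and E cyclin genes did not pass the test. Of 31 tested genes of G1 control 4 rose and 9 fell (29%, against 17.2% of all genes), with a median log2 change of -0.11. Mxi1, an antagonist of MYC, fell 1.62-fold, from 624, 561 and 572 to 385, 386 and 318, while its other probe set missed the threshold, at -0.33 (adjusted p = 0.0571). Cdkn1c, the gene of p57, fell 1.31-fold and Ccng1 by 0.33 on the log2 scale, while Cdkn1a, the gene of p21, rose 1.34-fold, from 234, 229 and 212 to 295, 296 and 311. Ccnd1, Ccnd2, Ccnd3, Ccne1 and Ccne2 were at log2 changes of -0.11, 0.26, 0.04, 0.02 and -0.03, and none passed the test, but Ccnd2 did with the covariate (0.43, adjusted p = 0.01) and without withdrawal replicate 2 (0.37, 0.033). Of 42 genes of mitosis and DNA replication 12 were lower (28.6%, against 17.2% of all genes) and 3 higher, all by small amounts: Ube2c fell 1.25-fold, Kif11 1.2-fold, Top2a 1.18-fold and Mcm6 1.18-fold, while Aurka rose by 0.22. Without 2 h replicate 3 the calls of Kif11 and Top2a were lost (adjusted p = 0.0517 and 0.0524). The other probe sets of these genes, at -0.05 and -0.19, were not called (limma adjusted p = 0.648 and 0.0625). For Mcm6 the adjusted p was 0.0764 and 0.0997 when withdrawal replicate 1 or 2 was dropped, and 0.0819 and 0.069 when 2 h replicate 1 or 2 was. The count of 12 was 5 without withdrawal replicate 1 and 6 without 2 h replicate 2 or 3, and that of 3 was 0 without withdrawal replicate 2, Aurka included (adjusted p = 0.0673), and 1 without 2 h replicate 1 or 3. Mki67 and Prim1 were not past the threshold.

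The largest falls were smaller than the largest rises. The 20 of them ran from 3.15- to 1.99-fold (adjusted p from 1.46e-07 to 0.0161). Limk2, for a kinase that controls actin filaments, was at 142, 132 and 131 and then at 64.2, 65.3 and 63.4, 2.1-fold lower (adjusted p = 1.46e-07). The zinc-finger gene Zfp90 fell 2.36-fold, from 605, 600.1 and 507 to 231, 243 and 247, and Rnf125, a ubiquitin ligase gene, 2.43-fold, from 237, 243 and 193 to 97.2, 93 and 85.3. In these 3 genes the highest 2 h array lay below the lowest withdrawal array by a margin wider than the spread within either group. Hspa1a, the inducible HSP70 gene, fell 2.98-fold, from 283, 226 and 226 to 87.6, 85.5 and 72.6. The kinase gene Cdkl4 fell 2.45-fold, Plpp7 2.32-fold, Mypop 2.27-fold, the homeobox gene Irx2 2.23-fold, Sh2d3c 2.17-fold and Fam110b 2.05-fold. Fam110b had another probe set at -0.47, and Snx33, at 1.99-fold, was the last of the 20, with Trib2 at 1.95-fold the next outside.

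A group of these falls followed the mesenchymal markers across the 3 withdrawal arrays. Pdgfra, a receptor gene of mesenchymal cells and itself one of the markers, was at 491, 804 and 1038 after withdrawal and 222, 234 and 253 at 2 h. Meis1, a homeobox partner of HOX proteins, read 108, 153 and 237 and then 51.3, 52.8 and 51.5, and Zfhx4 75, 134 and 172 and then 40.2, 44 and 45.4. In each of these, and in Nr2f1, Cbx6 and Hpcal1, withdrawal replicate 1 was the lowest withdrawal array and replicate 3 the highest. This was the order of the marker mean, at 7.89, 8.54 and 8.71 on the log2 scale after withdrawal. At 2 h that mean was 7.80, 7.91 and 8.05. On 2 h replicates 2 and 3 it was thus above withdrawal replicate 1, yet these genes were lower there than on that array. With that mean as a covariate the folds went from 3.04 to 1.98 for Meis1, from 2.78 to 1.73 for Zfhx4, from 2.4 to 1.65 for Nr2f1, from 2.12 to 1.49 for Hpcal1 and from 2.02 to 1.57 for Cbx6, all still past the threshold (adjusted p from 0.000156 to 0.0061). Limk2, Zfp90, Rnf125, Hspa1a and Cxcr4 were 2.22-, 2.43-, 2.72-, 3.54- and 2.2-fold lower with it. Angptl4, at 68.8, 177 and 167 and then 65.6, 66.3 and 57.5, was 2.01-fold lower (adjusted p = 0.0161), and was not past the threshold with the covariate (0.134) or when withdrawal replicate 2 (0.085), withdrawal replicate 3 (0.072) or 2 h replicate 3 (0.0559) was left out. Of the 13 tested markers themselves 4 fell (30.8%, against 17.2% of all genes), Pdgfra, Col3a1, Col5a1 and Col1a1, and Twist1 rose, with a median of -0.47, and without withdrawal replicate 1 the count of falls was 9. Col3a1 and Col5a1 missed the threshold when withdrawal replicate 2 was dropped (adjusted p = 0.163 and 0.0792) and when replicate 3 was (0.0975 and 0.152). With the covariate 2 markers fell, but it is the mean of these 13 markers, so a weaker fall of theirs is built into that fit. Of the 22 markers, Pdgfrb, Col6a1, Col6a2, Lum, Prrx1, Postn, Tcf21, Thy1 and Twist2 were under 16 on all 6 arrays, while Vim averaged 1288 after withdrawal and 889 at 2 h, Col1a1 722 and 516 and Dcn 198 and 135. In bulk RNA fewer cells of a type and less RNA per cell cannot be told apart.

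**Figure D3:**
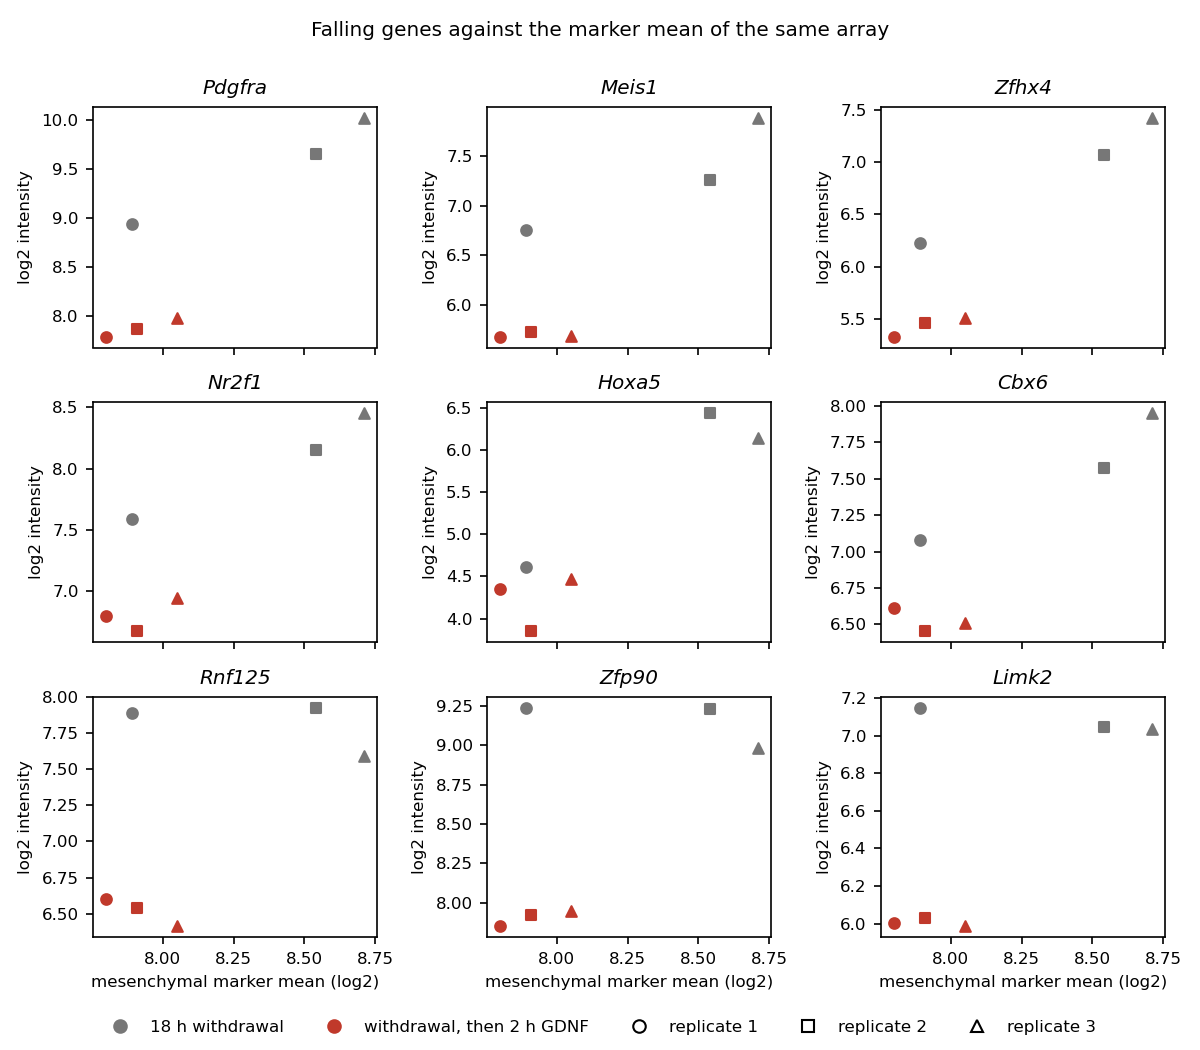
Log2 intensity of 9 genes that fell (vertical axes) against the mesenchymal marker mean (log2, horizontal axes) on the 3 withdrawal and 3 arrays at 2 h, 1 panel a gene and 1 point an array. Meis1, Zfhx4 and Pdgfra, itself part of that mean, climb with it among the withdrawal arrays, from 7.89 to 8.71, and Limk2 and Zfp90 do not.

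HOX genes and their TALE partners split. Hoxc4 went from 482, 453 and 443 to 931, 929 and 946, 2.04-fold higher (adjusted p = 4.08e-09), although its other probe set, at means of 20 and 23.1, was not called (adjusted p = 0.121). Hoxa5 fell from 24.5, 86.8 and 70.5 to 20.4, 14.4 and 22.1. Its withdrawal replicate 1 lay next to the 2 h arrays, and the 2.84-fold fall (adjusted p = 0.00496) was 4.19-fold without that array and 1.7-fold with the mesenchymal covariate. Tgif2 rose by 0.39. In all, 2 of 14 tested members rose (14.3%, against 10.9% of all genes) and 4 fell (28.6%, against 17.2%). Pknox2 was 1.53-fold lower, a call lost without withdrawal replicate 2 (adjusted p = 0.0571) and with only the groups compared in the fit (0.0746).

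In the ATF4 amino acid response 10 of 37 fell (27%, against 17.2% of all genes) and 5 rose, with a median of -0.10. Chac1, for an enzyme that breaks down glutathione, fell 2.57-fold, from 45.2, 52.3 and 47.4 to 17.8, 23.1 and 15.9, while Ppp1r15a, which reverses the block on translation, rose 1.59-fold, from 321, 285 and 279.8 to 435, 484 and 487, and Ddit3 1.46-fold. Both pairs of groups were apart. The serine synthesis gene Phgdh fell by 0.36, and Psat1 was at -0.00 and not past the threshold. Cebpb was called 1.36-fold lower with overlapping groups (adjusted p = 0.0493), which 11 of the alternative settings undid. With the mesenchymal covariate its log2 change was -0.08 (adjusted p = 0.575). The adjusted p was 0.129 without withdrawal replicate 2, 0.219 without replicate 3, and 0.15 and 0.163 without 2 h replicates 1 and 2. Among heat shock chaperones 7 of 24 fell (29.2%) and 2 rose, with a median of -0.14, the co-chaperone gene Chordc1 1.24-fold and Fkbp4 1.17-fold lower and the endoplasmic reticulum gene Dnajb9 1.3-fold higher. Without withdrawal replicate 2 the count of falls was 4, a share near that of all genes, and Fkbp4 missed the threshold (adjusted p = 0.0512).

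Of 59 ribosome biogenesis genes 8 rose (13.6%, against 10.9% of all genes) and 7 fell (11.9%, against 17.2%), with a median of 0.00. The processome genes Utp15 and Utp18 rose 1.58- and 1.53-fold, Rrn3, a factor of RNA polymerase I, 1.23-fold, and Rrs1 fell 1.48-fold. With the mesenchymal covariate the counts were 5 and 11. Spermatogonial genes rose in 3 of 15 and fell in 3 (20% each, against 10.9% and 17.2% of all genes). Bcl6b, Id4 and the integrin gene Itgb1 were up and Ret, Cdh1 and Foxo1 down. Cdh1 fell 1.38-fold, from 549, 535 and 494 to 367, 377 and 396. Of 8 genes of differentiating and meiotic cells 1 rose (12.5%, against 10.9% of all genes), the synaptonemal complex gene Sycp1. It was 1.36-fold higher, from 255, 209 and 211 to 317, 297 and 299. In that list 0 fell by limma (against 17.2%), also at an unadjusted p under 0.05. The count of rises there was 3 without withdrawal replicate 1 and 2 without withdrawal replicate 2 or 2 h replicate 2, with Sycp3 at 0.14 (adjusted p = 0.0693, and 0.038 without withdrawal replicate 1). In the circadian list 2 of 17 rose (11.8%, near the 10.9% of all genes), Bhlhe40 and the repressor gene Nr1d2 (1.13-fold). In the Wnt list 1 of 17 rose (5.9%, against 10.9% of all genes) and 2 fell (11.8%, against 17.2%). The rise was the receptor gene Fzd6 (1.36-fold). The Wnt receptor gene Lrp6 and the factor gene Tcf7 were 1.26- and 1.17-fold lower, calls lost without 2 h replicate 3 (adjusted p = 0.0649 and 0.0871), for Lrp6 also without withdrawal replicate 1 (0.0505) or 2 h replicate 2 (0.0528) and for Tcf7 without withdrawal replicate 2 (0.0884). Csnk1d was 1.15-fold lower, and its other probe sets, at -0.04, 0.11 and -0.10, were not called. The call of Csnk1d did not hold when withdrawal replicate 1 (adjusted p = 0.114), withdrawal replicate 2 (0.108) or any 2 h array (0.0929, 0.105 and 0.0584) was dropped.

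**Figure D4:**
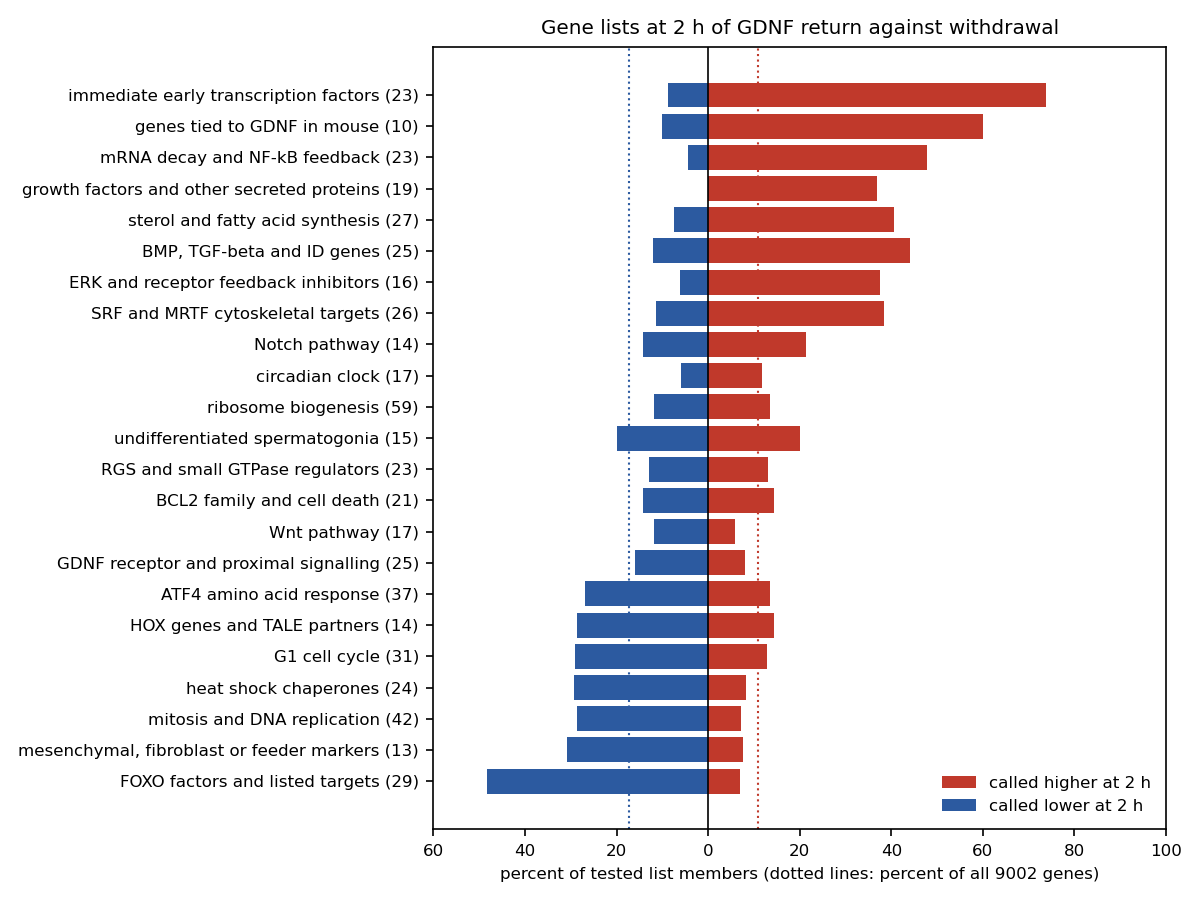
Percent of tested members called higher (to the right) and lower (to the left) at 2 h for the 23 gene lists with 10 or more tested members, with dotted lines at the shares of all genes, 10.9% higher and 17.2% lower. Immediate early factors have the highest share of rises, 73.9%, and FOXO factors and targets the highest share of falls, 48.3%.

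Levels at 2 h were then set beside the control, which shares the 2 h arrays with the comparison above, so the values are given side by side. By limma 1000 of 9002 genes (11.1%) were higher and 1246 (13.8%) lower at 2 h than in the control. Of the 20 largest rises over withdrawal, 16 were above the control as well. Egr2 averaged 16.2 ± 2.97 in the control (SD, n = 3), 13.2 ± 4.5 after withdrawal and 330.4 ± 24 at 2 h, 4.36 above the control on the log2 scale (adjusted p = 6.21e-09). Vegfa was at 213 ± 8.87, 244 ± 38.5 and 629 ± 99.5, and Hes1 at 768 ± 62, 747 ± 30 and 1784 ± 39.7, so that both stood above the control and the withdrawal arrays alike. Srf and Vcl did the same, at log2 differences of 0.80 and 0.96 above the control, as did Idi1 (0.87) and Sc5d (0.58). Bhlhe40, Tor4a and Gbp2 came to levels that did not differ from the control past the threshold, at -0.12, -0.20 and 0.05 (adjusted p = 0.607, 0.283 and 0.833). For Bhlhe40 this was 102 ± 3.88 in the control, 35.1 ± 9.63 after withdrawal and 93.9 ± 6.35 at 2 h. Bcl6b stayed far below, at 1588 ± 52.4, 164 ± 26.4 and 399.9 ± 36.2, a log2 difference of -1.99 (adjusted p = 9.24e-09), and so did Hoxc4, at 1704 ± 57.1, 459 ± 19.8 and 935 ± 9.46.

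Among the 20 largest falls 18 were also below the control at 2 h, and 1, Hspa1a, was above it. The mesenchymal marker mean was also higher in the control, at 8.38, 8.73 and 8.26 on the log2 scale, against 7.80, 7.91 and 8.05 at 2 h. Values with that covariate are not given here gene by gene, so its part in these differences is left unstated. Hspa1a was at 41.9 ± 7.94 in the control, 245 ± 33 after withdrawal and 81.9 ± 8.14 at 2 h. Hey1 was at 83.6 ± 0.809, 187 ± 20.4 and 77.3 ± 6.41, and its level at 2 h did not differ from the control past the threshold (adjusted p = 0.574). Cdkn1b, at 91.4 ± 7.49, 140.4 ± 5.21 and 92.5 ± 5.66, was likewise not told apart from the control (0.928). Foxo3 and Bik had fallen and were still 0.97 and 0.79 above the control on the log2 scale (adjusted p = 8.21e-07 and 3.46e-05). Limk2 averaged 198 ± 9.45, 135 ± 5.96 and 64.3 ± 0.959 and Ret 4301 ± 235, 3779 ± 172 and 2630 ± 64.9, so that both were lowest at 2 h among these 3 groups.

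Levels at 4 h were set against those at 2 h, which again shares the 2 h arrays. Between these times 767 genes (8.52%) were higher and 650 (7.22%) lower by limma. Of the 20 largest rises 3 had turned down, 5 had gone on up and 12 were not past the threshold. Egr2 was down to 87.8 ± 24.8 at 4 h (log2 change -1.94 ± 0.23 SE, limma adjusted p = 5.12e-05) and 18.9 ± 1.19 at 8 h, and Egr1 was down by 0.30 and Dusp5 by 0.51. Srf (-0.37), Mafk (-0.56), Pim3 (-0.63), Zfp36 (-0.46), Hes6 (-0.64) and Gem (-0.63) also turned down, as did the sterol genes Idi1 (-0.60), Sc5d (-0.91) and Msmo1 (-0.35). Sc5d, at 402 ± 17.2 at 2 h, was back at 215 ± 25.2 at 4 h. Fosb, at 391 ± 213 at 4 h, was widely spread and did not differ past the threshold (adjusted p = 0.256).

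The genes that went on up were Sfn, at 636 ± 46.8 at 4 h and 150.1 ± 5.74 at 8 h, Tor4a, Gbp2, Bhlhe40 and Bcl6b. Bcl6b reached 669 ± 71 at 4 h (log2 change 0.74, adjusted p = 0.000391) and 643 ± 52.7 at 8 h. Plaur rose by a further 1.71 to 350.2 ± 64, Fosl1 by 0.64 and Dusp6 by 0.27. Ccnd2 and Etv5 were higher at 4 h than at 2 h by 0.96 and 0.67 (adjusted p = 4.05e-05 and 0.00279). Ccnd2 averaged 406 ± 68.6 after withdrawal, 482 ± 14.1 at 2 h and 943 ± 110.2 at 4 h. Ret went further down, to 1932 ± 40.8 (log2 change -0.44, adjusted p = 8.39e-06), and stood at 3266 ± 37.2 at 8 h. Bik fell by a further 1.40 to 137 ± 11.1 and Foxo3 by 0.68 to 263 ± 15.4. Of the 20 largest falls 7 turned up again by 4 h, Meis1, Zfhx4, Cdkl4, Irx2, Cxcr4, Limk2 and Angptl4, and 3 went further down, Rnf125, Plpp7 and Fam110b. The mesenchymal marker mean went from 7.80, 7.91 and 8.05 at 2 h to 7.93, 8.32 and 8.40 at 4 h. Values with that covariate are not given here for 4 h against 2 h gene by gene. Klf2, at 705 ± 42.4 at 2 h, was back up at 1149 ± 116.

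**Figure D5:**
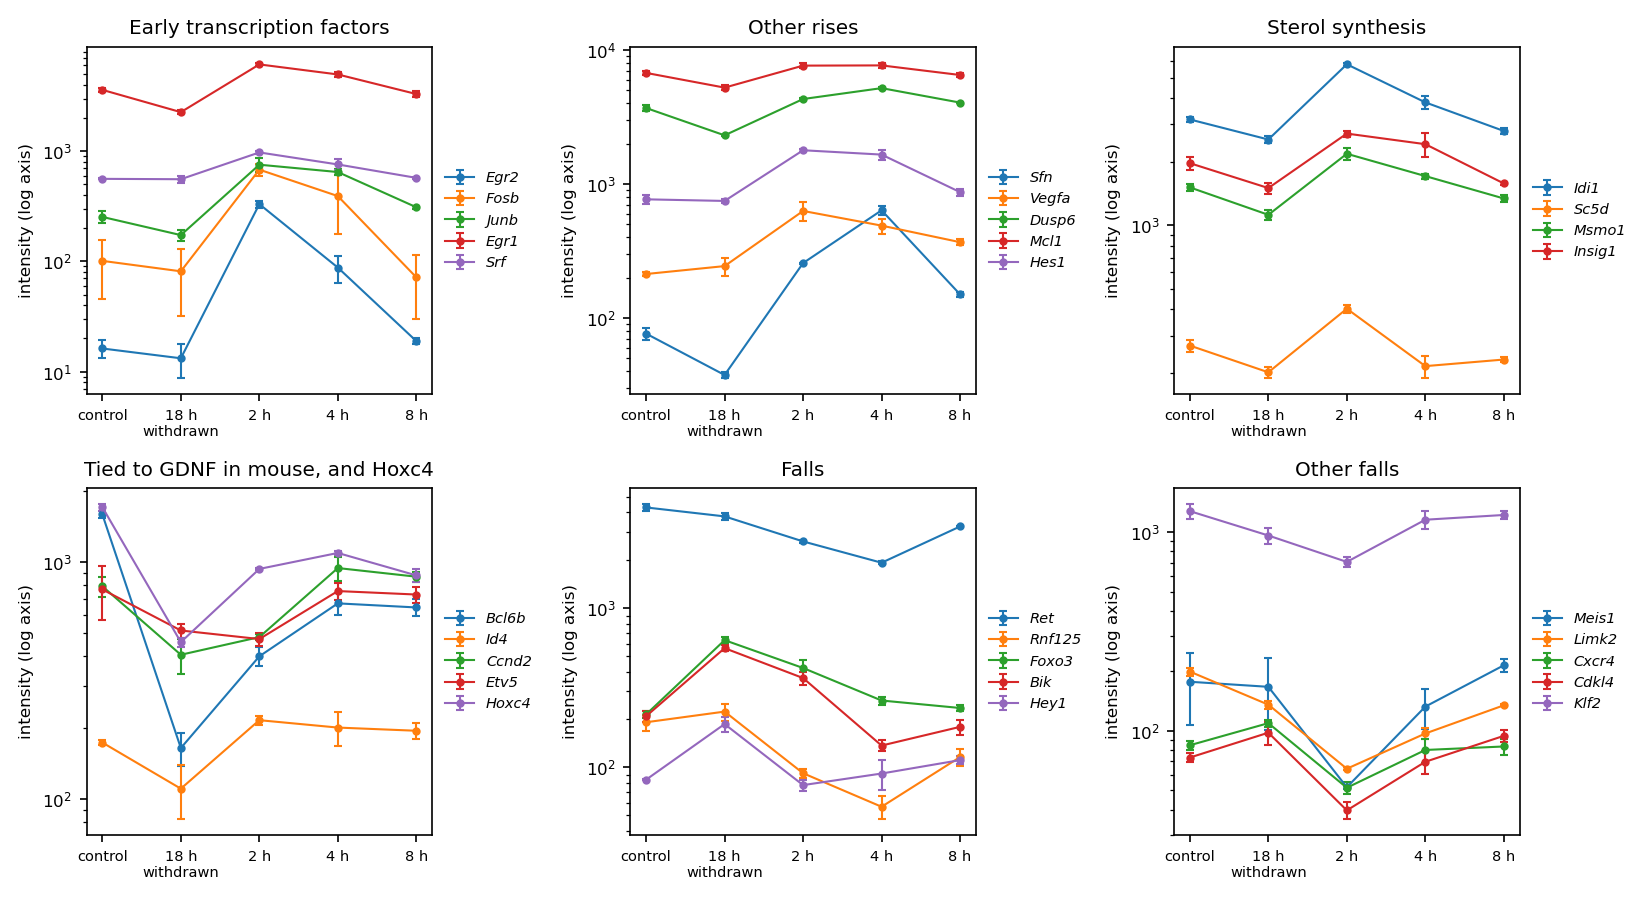
Mean intensity (log axis, bars SD over 3 arrays) in control, withdrawal, and 2, 4 and 8 h after GDNF return, 1 line a gene in 6 panels. Egr2, Srf, Idi1 and Sc5d peak at 2 h, Sfn at 4 h, and Ret has its lowest mean at 4 h, 1932.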

How the data were processed

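The authors deposited 1 intensity for each of 31099 probe sets on each of 15 arrays, on a linear scale, and the submitters' processing notes name GCRMA and Partek 6.3 with no order or settings. The intensities were converted to log2 values for this report from the deposited table, and 57 control probe sets were left out. Probe sets with a log2 value of 4 (intensity 16) or more on at least 3 of 15 arrays were tested, 15856 in all, and on each array 50.1% to 50.4% of probe sets reached it. No columns of other samples were in the table. limma 3.58.1 in R 4.3.3 fitted all 5 groups of 3 arrays with an intensity trend, and each comparison had its own Benjamini-Hochberg adjustment, with 0.05 as the threshold. The number of arrays limits the precision. The p-values rest on the spread between cultures within groups, pooled over the 5 groups and moderated towards the intensity trend over all probe sets. A single widely spread group is thus not judged by its own spread alone.

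Genes were named from the platform annotation, updated by gene ID through RefSeq GRCr8: 20832 probe sets had 1 symbol (20764 matched), 436 several and 9831 none. A gene is its tested probe set of highest mean. Named genes are the 20 largest rises and falls that were called, did not overlap and reached log2 6 in the higher group, all tested immediate early genes, genes tied to GDNF and GDNF receptors, and up to 4 called and 2 uncalled members of each of 27 lists. Further list members given by log2 change were chosen after their values were seen. The comparison and the lists were chosen with earlier results of these data known. Some genes, among them Srf, Hes1, Klf10, Id4, Egr2 and Fos, are in more than 1 list, so the list counts are not independent. Alternatives covered the filter, floor, centring, quantile normalization, trend, array weights, samples in the fit, replicate block, multi-target probe sets, a mesenchymal covariate and each array left out.

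The fit was tested on simulated data for 2 h against withdrawal: of 200 changed among 15856 probe sets it recovered 36%, 78%, 94% and 100% at log2 changes of 0.25, 0.5, 1 and 2, with 13 false calls. The simulated noise was drawn separately for each value, with no variation shared by the probe sets of an array. In the data 26.1% of probe sets were called, so these figures need not hold for the real comparison.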

Additional observations from a re-analysis of the deposited data

Results flagged for a closer look

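A control probe set outside the tested set, for 5S ribosomal RNA, read higher at 2 h than in the control. Its mean intensity was 1682 ± 28.4 at 2 h (SD, n = 3), 1263 ± 58.4 in the control and 2044 ± 45.8 after withdrawal, with 1444 ± 165 at 4 h and 1258 ± 29.8 at 8 h. The 2 h level thus lay below that of withdrawal and above that of the control.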

How the results depend on the processing

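Of the 20 largest rises 19 kept their call under every setting tried, Fos being the exception, and of the 20 largest falls 19 did, Angptl4 being the exception. The 2249 lower probe sets became 1472 to 1956 when 1 array was left out, and the 51 that were lower by 2-fold or more became 38 to 95, with 95 without withdrawal replicate 1. Against the control, the 1775 higher probe sets were 1049 with the mesenchymal covariate and 1143 to 1592 with 1 array left out. From 2 h to 4 h, the 974 lower probe sets were 578 to 785 with 1 array left out, 578 without 2 h replicate 1. The cause was not tested.

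Some genes that were not past the threshold changed sign. With median centring the log2 changes were 0.01 for Fasn, 0.02 for Sod2, 0.02 for Psat1, 0.01 for Casp2 and 0.00 for Capza1, and with array weights 0.01 for Psat1 and 0.00 for Mki67. With the covariate they were -0.00 for Rasa1, 0.21 for Zfp36l1, -0.03 for Numb, 0.05 for Sod2, 0.01 for Psat1, -0.04 for Rbl1, 0.04 for Capza1, 0.03 for Cdc42, 0.03 for S100a4, 0.05 for Vim and 0.17 for Gfra2. S100a4 and Vim are themselves part of the mean used as the covariate. With 1 array left out the ranges were -0.08 to 0.00 for Mycn, -0.06 to 0.02 for Ccne2, -0.07 to 0.04 for Mki67, -0.03 to 0.01 for Casp2, -0.04 to 0.10 for Tpm3, -0.04 to 0.23 for Acta2, -0.01 to 0.06 for Cry1, -0.22 to 0.06 for Gfra2, -0.18 to 0.09 for Zfp36l1, -0.02 to 0.05 for Numb, -0.05 to 0.13 for Jag1, -0.02 to 0.01 for Fasn, -0.06 to 0.05 for Sod2, -0.02 to 0.02 for Psat1, -0.01 to 0.09 for Fbl, -0.05 to 0.05 for Capza1, -0.10 to 0.02 for Cldn11, -0.11 to 0.00 for Serpine2 and -0.06 to 0.01 for Smurf2.

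Residuals of same-numbered arrays correlated at 0.182, 0.0107 and 0.109, and the labels call the cultures independent, so the numbers were not taken as pairs. A fit with the replicate number as a block called 4291 probe sets, 1926 higher and 2365 lower, and of 177 named genes 2 lost the call, Crem and Rem2, and 3 gained it. Changes near the detection level rest on signals close to background.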
